A study of Homo sapiens with 6 samples.

Results

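The 39 genes described here carry out or signal the repair of DNA double-strand breaks and of DNA crosslinks, and they were chosen by their symbols from these pathways. All 39 were found among the 22413 mouse genes listed for the series, and all 39 were among the 12163 genes that could be tested. The sample labels name the organism as human, whereas the gene identifiers are those of the mouse. These genes were measured in BaF3-T315I cells, a murine pro-B line that normally depends on interleukin 3 and that was stably transfected with BCR-ABL, the fusion kinase of chronic myeloid leukemia, carrying the T315I mutation, and both groups are of this same transfected line. mRNA was sequenced in 3 control samples, whose treatment is not described further and whose time is not given, and in 3 samples treated with 1.1 µM of I13, an inhibitor of histone deacetylases, for 48 h by the study's methods. The samples are numbered 1 to 3 in each group. The study's methods speak of independent experiments in general, and neither they nor the labels say whether the sequenced samples came from separate cultures, so the p-values measure the spread between these samples, which may be technical.

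Double-strand breaks are repaired along either of 2 main routes. In homologous recombination, nucleases resect the broken ends, BRCA1 and BRCA2 with their partners prepare the single strand to invade an intact copy, and the joined molecules are later taken apart by the BLM helicase complex. In end joining, the Ku proteins hold the ends and a ligase complex seals them without a template. The Fanconi anemia pathway clears crosslinks between the strands: a core complex attaches ubiquitin to the FANCI and FANCD2 proteins, and nucleases and recombination complete the repair. The kinases ATM and ATR report the damage to the checkpoints of the cell cycle. Many of these genes are expressed most in dividing cells.

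None of the 39 genes passed an adjusted p of 0.05 in the comparison of the groups, where 0.0411% of all genes tested did, so this count does not set them apart from other genes, and their log2 fold changes ran from -0.60 for Rmi2 to 0.53 for Brca2. The gene with the clearest difference was Rmi2, a small subunit of the BLM complex, which was lower after I13. It passed the thresholds only when samples of the same number were compared as pairs, a pairing read from these same data. Its partner Rmi1 was higher in every I13 sample than in every control, so that the ratio of the 2 partners differed by more than either gene did. Of the variation of the 39 genes, 50.5% lay between the 3 replicate numbers and 27.9% between the groups, against 44.2% and 27.7% for all genes tested. The replicate numbers have an additional degree of freedom, so each share is read against that of all genes, not against the other. I13 replicate 3 was the lowest of the I13 samples in 32 of the 39 genes, or 82.1%, against 48.01% of all genes tested. The same held for 75% of the genes marking S phase and 91.7% of those marking mitosis.

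The values are FPKM, that is fragment numbers scaled for the size of a gene and for the depth of a sample. Levels of different genes are described by their FPKM, which depends on the gene length used for the scaling. The libraries held between 16762119 and 17722950 fragments, which were recovered from the FPKM values, so depth differed little. Differences were taken on the scale of log2(FPKM + 0.1), which understates the change of a gene with a low FPKM. They were tested with limma over the 12163 genes with a mean of at least 0.5 FPKM, with Benjamini-Hochberg adjustment over all of them. Genes are described as called where the adjusted p was below 0.05 and the log2 fold change at least 0.58 in either direction, limits that the study's methods also use. The study names no test for its sequencing. At these limits it reported more genes than the 5 called here, or the 230 called with the samples paired by number. In bulk samples, fewer cells of a type and less RNA per cell cannot be told apart. Of the markers of the line, 10 of 11 were found in the table and 6 had a mean of at least 0.5 FPKM, with the beta chains of the interleukin 3 receptor, Csf2rb and Csf2rb2, at means of 329 and 286 FPKM in the control and of 588 and 572 FPKM in the I13 samples. Of the B lineage markers, Cd79a was at 14.1 to 27.5 FPKM and Cd79b at 3.57 to 6.94 FPKM over the samples, while Vpreb1, Igll1, Ebf1 and Pax5 lay between 0 and 0.107 FPKM. The 4 T cell markers summed to at most 0.394 FPKM in any sample, with Cd3g at 0 in all controls, and the 1 fibroblast marker in the table reached at most 0.130 FPKM. Of 3 macrophage markers Adgre1 alone had a mean of at least 0.5 FPKM, and their sum ran from 18.2 to 40.1 FPKM in the control and from 44.2 to 76.8 FPKM in the I13 samples. The 4 erythroid markers summed to 0.938 to 1.41 FPKM in the control and to 2.57 to 5.86 FPKM in the I13 samples, mostly Hba-a1. The part of these markers in the differences of the repair genes was not tested.

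All 39 genes were expressed in both groups. Over the 6 samples, their means ran from 1.45 FPKM for Rad51c, above 15.8% of the genes tested, to 30.2 FPKM for Topbp1, above 84.0% of them. The fewest fragments on any of them in a sample were 83, on Rad51c in I13 replicate 2, where counting alone gives an error of 10.98%.

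**Figure D1:**
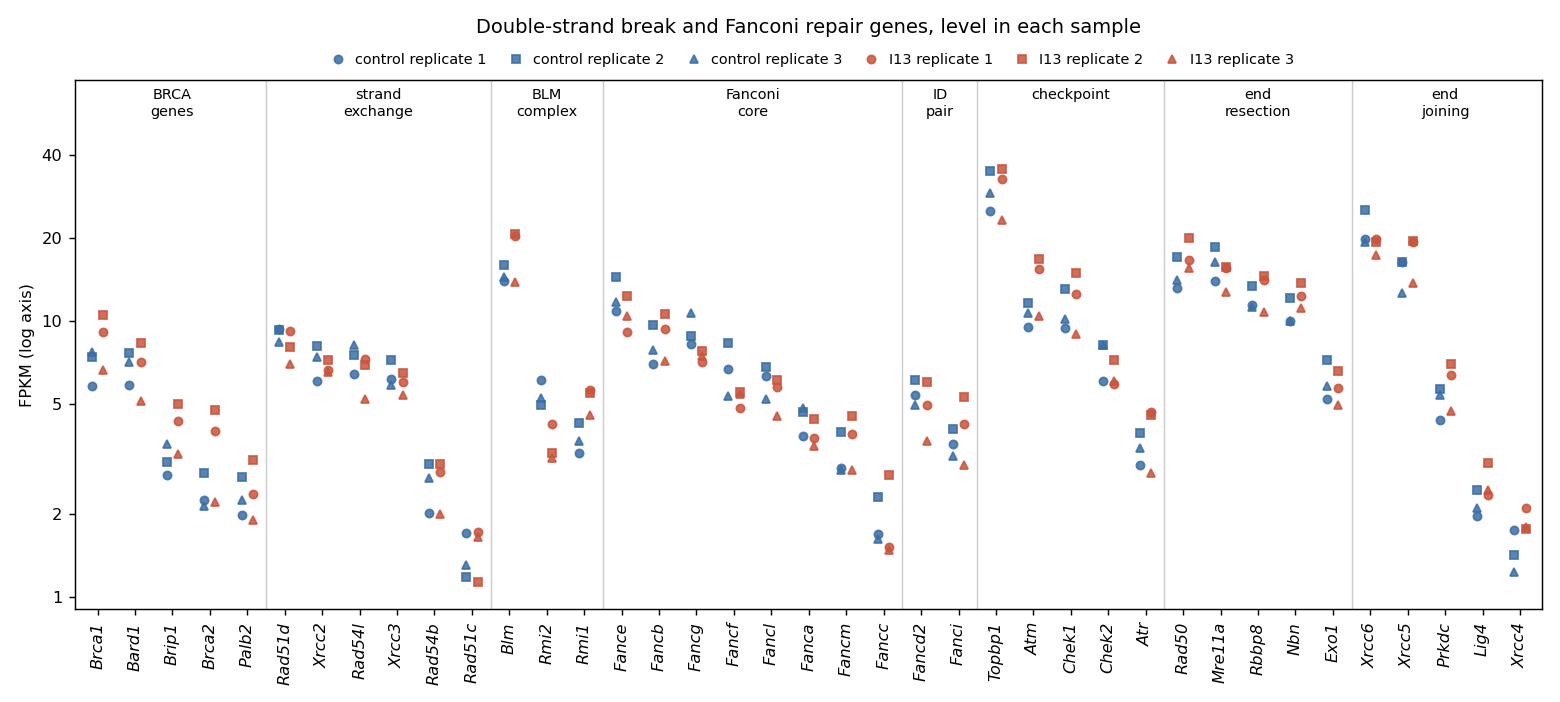
Level of each of the 39 repair genes in each sample, in FPKM on a log axis. Genes are grouped by role and ordered within a role by their mean; blue marks are the 3 control and red marks the 3 I13 samples, with the shape giving the replicate number. Rmi2 is the gene whose 3 red marks lie furthest below its blue marks, and in Rmi1 and Xrcc4 all red marks lie above all blue ones.

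BLM unwinds joined DNA molecules, and with RMI1 and RMI2 and a topoisomerase it separates recombined chromatids without exchange between them. Rmi2 (ENSMUSG00000037991) stood in control replicates 1, 2 and 3 at 6.13, 4.97 and 5.28 FPKM and in I13 replicates 1, 2 and 3 at 4.25, 3.32 and 3.19 FPKM, from 394 to 488 fragments in the controls and from 250 to 337 after I13. All 3 I13 samples lay below all 3 controls. Its mean was 5.46 ± 0.598 FPKM in the control and 3.59 ± 0.581 FPKM after I13 (SD, n = 3 each), a change of -34.3%. On the log2 scale this was -0.60 with a standard error of 0.15, and its adjusted p of 0.126 from limma was the lowest of the 39 genes. With the replicate number as a block, the adjusted p from limma was 0.0491 and Rmi2 was called as decreased. It was lower in each pair, by -0.52, -0.57 and -0.71 on the log2 scale for replicates 1, 2 and 3. Its log2 fold change was -0.64, -0.61 and -0.54 without replicates 1, 2 and 3 of both groups in that fit. The adjusted p from limma was then 0.102, 0.311 and 0.111, in smaller designs where 85, 0 and 0 of the 12163 genes tested passed an adjusted p of 0.05.

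Rmi1 (ENSMUSG00000035367) encodes the scaffold that binds RMI2 and stimulates the complex. In control replicates 1, 2 and 3 it was measured at 3.32, 4.27 and 3.67 FPKM, and in the same order after I13 at 5.61, 5.51 and 4.56 FPKM. The groups did not overlap, although I13 replicate 3 lay close to control replicate 2. The mean was 3.75 ± 0.480 FPKM in the control and 5.22 ± 0.579 FPKM after I13 (SD, n = 3 each). The difference was 0.47 on the log2 scale, with a standard error of 0.14 and an adjusted p of 0.164 from limma. Blm was the most abundant gene of the complex, at 14.0, 16.1 and 14.4 FPKM in the controls and at 20.4, 20.7 and 13.8 FPKM in I13 replicates 1, 2 and 3. In 2 of the I13 samples it lay above every control, and in I13 replicate 3 it lay below them all, so its log2 fold change of 0.28 had a 95% interval from -0.11 to 0.67.

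In the comparison without the block, 0 of the 39 genes were called and 0 passed the adjusted p whatever their fold change, against 0.0411% of the 12163 genes tested for each count. At an unadjusted p below 0.05, which 18.6% of all genes tested reached, 1 of the 39 was higher (Rmi1) and 2 were lower (Rmi2 and Fancg). That is 2.56% and 5.13%, against 7.79% and 10.8% of all genes tested. With the replicate block, 1 of the 39 was called, namely Rmi2 as lower, against 1.89% of all genes tested called in either direction and 0.526% called as lower. It was also the 1 gene of the 39 with an adjusted p below 0.05 there, against 2.99% of all genes. In that fit 9 of the 39 had an unadjusted p below 0.05, or 23.1%, against 28% of all genes. The higher ones were Brca2, Rmi1, Atm, Rad50, Nbn and Xrcc5, and the lower ones Rmi2, Fance and Fancg. The groups did not overlap in 4 of the 39 genes. Rmi1 and Xrcc4 were higher in this way, against 9.82% of all genes tested, and Rmi2 and Fancg lower, against 15.4%. A log2 fold change of at least 0.58 in either direction was reached by Rmi2 alone, against 9.41% of all genes. The share called as lower with the block, 2.56% against 0.526%, rests on 1 gene and does not set the repair genes apart. By each of the other counts, their share lay near or below that of all genes. Of the 39 genes, 22 were higher and 17 lower after I13, and their median log2 fold change was 0.07 against -0.01 for all genes tested.

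**Figure D2:**
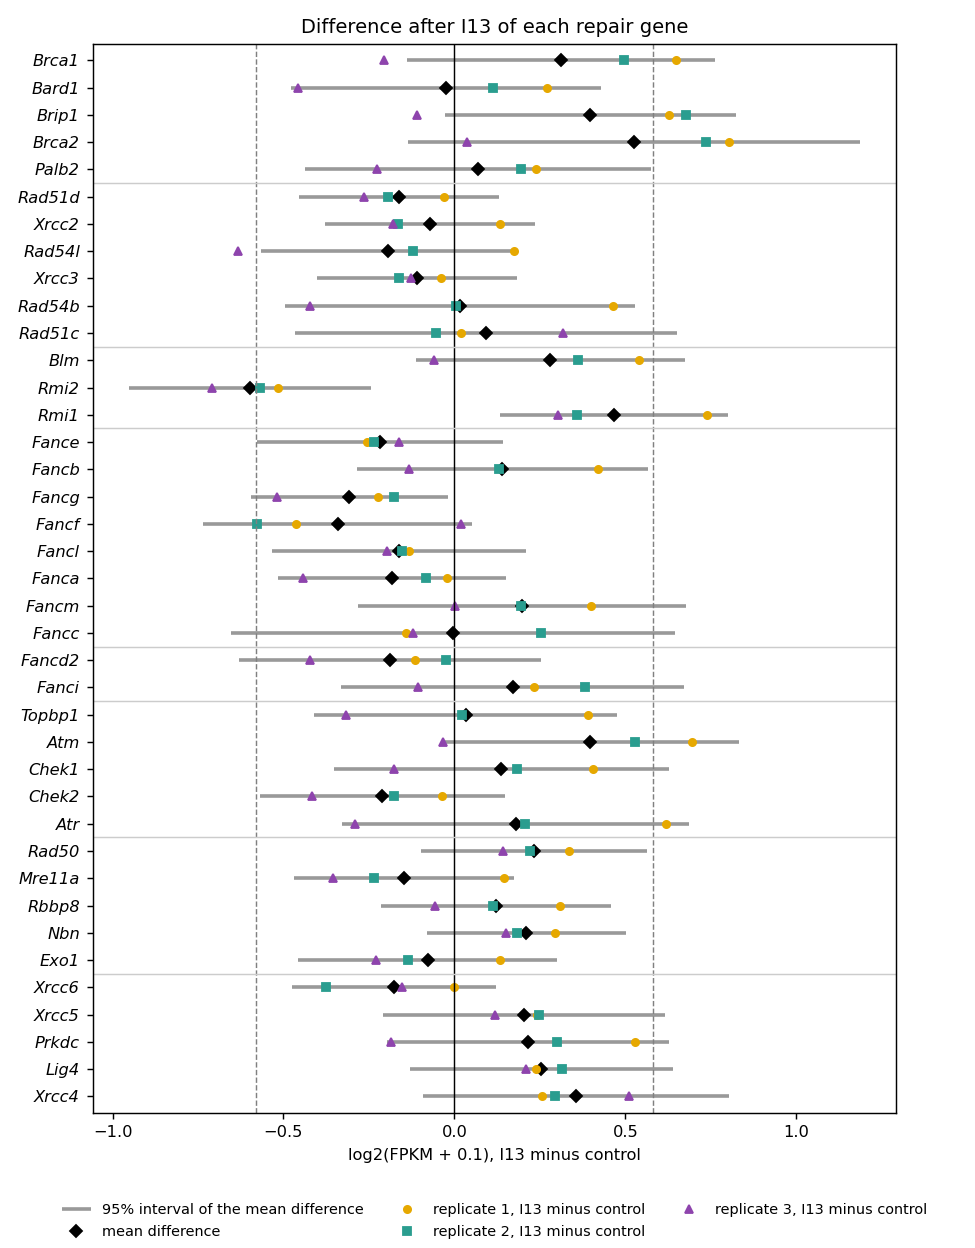
Difference after I13 of each repair gene on the scale of log2(FPKM + 0.1), grouped by role in the order of the text. Black diamonds are the mean differences with their 95% interval from limma as a grey bar, coloured marks are the differences within the 3 pairs of same-numbered samples, and dashed lines stand at -0.58 and 0.58. The intervals of Rmi2, Rmi1 and Fancg leave out 0, and the purple triangles of replicate 3 lie left of the other marks in most genes.

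The BRCA proteins and their partners act on resected DNA. BRCA1 works as a ubiquitin ligase with BARD1, PALB2 joins BRCA1 to BRCA2, BRCA2 acts at the single strand, and BRIP1 is a helicase bound to BRCA1. Of the 5 genes, 4 were higher after I13, and Bard1, with a log2 fold change of -0.02, turned to 0.00429 when FPKM was rescaled to TPM. Their median log2 fold change was 0.31, and the adjusted p from limma lay between 0.294 and 0.961. Brca1, the most abundant, had 5.81, 7.44 and 7.72 FPKM in the controls and 9.16, 10.5 and 6.68 FPKM after I13. I13 replicates 1 and 2 lay above all controls and I13 replicate 3 within them. Brca2 had the highest log2 fold change of the 39 genes, 0.53 with a 95% interval from -0.13 to 1.19, and its mean was 2.398 ± 0.360 FPKM in the control and 3.65 ± 1.31 FPKM after I13 (SD, n = 3 each). Without I13 replicate 3 this value was 0.84, and without I13 replicate 2 it was 0.31. Brip1 had a log2 fold change of 0.40 and Palb2 of 0.07, the latter at the low mean of 2.39 FPKM over the samples. In the pairs of replicates 1 and 2 all 5 genes were higher after I13, and in the pair of replicate 3 only Brca2 was, by 0.04.

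Rad51c, Rad51d, Xrcc2 and Xrcc3 encode proteins that help strand exchange to begin, and Rad54l and Rad54b encode proteins that remodel DNA during it. In these 6 genes the median log2 fold change was -0.09, with 2 higher and 4 lower, and the adjusted p from limma ran from 0.514 to 0.977. Rad51d was the most abundant, at 9.37, 9.28 and 8.42 FPKM in the controls and at 9.18, 8.10 and 6.998 FPKM in I13 replicates 1, 2 and 3, so the groups overlapped. Rad54l differed by -0.19, Xrcc3 by -0.11 and Xrcc2 by -0.07 on the log2 scale. Rad54b, at 0.02, had its sign turned by a correction for gene length, to -0.0151. Rad51c, the least abundant of all 39 genes, stood at 1.39 ± 0.272 FPKM in the control and at 1.502 ± 0.324 FPKM after I13 (SD, n = 3 each).

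The Fanconi core complex is the ubiquitin ligase of the crosslink pathway. FANCL is its catalytic subunit and works with FANCB, FANCA binds FANCG, FANCC, FANCE and FANCF bring in the substrate, and FANCM anchors the complex to DNA. Of these 8 genes, 6 were lower after I13, and the median log2 fold change was -0.17. One of the 6, Fancc, stood at -0.003 and was above 0 with median-ratio scaling (0.0154) and as TPM (0.0246). Fancg (ENSMUSG00000028453) had 8.30, 8.83 and 10.8 FPKM in the controls and 7.09, 7.80 and 7.47 FPKM in I13 replicates 1, 2 and 3. Its I13 samples all lay below the controls, by a narrow margin for control replicate 1. The difference of -0.31 on the log2 scale had a standard error of 0.12 and an adjusted p of 0.243 from limma, and it was -0.20 without control replicate 3. Fance, the most abundant, stood at 10.9, 14.5 and 11.7 FPKM in the controls and at 9.13, 12.3 and 10.4 FPKM after I13. It was lower in each pair by a like amount, -0.26, -0.24 and -0.16 on the log2 scale, while its groups overlapped, with replicate 2 the highest in each. Fancf differed by -0.34, Fanca by -0.18 and Fancl by -0.16, and on the other side Fancm differed by 0.20 and Fancb by 0.14. Fancg, Fance, Fanca and Fancl were lower in all 3 pairs, and Fancm was higher in all 3, by 0.0013 in the last.

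FANCI and FANCD2 form the clamp that the core complex marks with ubiquitin. Fancd2 stood at 5.38, 6.13 and 4.98 FPKM in the controls and at 4.96, 6.02 and 3.69 FPKM in I13 replicates 1, 2 and 3, a log2 fold change of -0.19 with a 95% interval from -0.63 to 0.25. Fanci differed by 0.17 in the other direction, with an interval from -0.33 to 0.67. Fancd2 had means of 5.50 ± 0.586 FPKM in the control and 4.89 ± 1.17 FPKM after I13 (SD, n = 3 each). Those of Fanci were 3.63 ± 0.413 and 4.18 ± 1.16 FPKM in the same order (SD, n = 3 each). In both genes the groups overlapped.

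Among the checkpoint genes, ATM is the kinase that answers breaks, ATR with its activator TOPBP1 answers single-stranded DNA, and CHK2 and CHK1 are the kinases below them. Of the 5 genes, 4 were higher and the median log2 fold change was 0.14, with an adjusted p from limma between 0.305 and 0.945. Atm had the largest difference, from a mean of 10.6 ± 1.05 FPKM in the control to 14.3 ± 3.33 FPKM after I13 (SD, n = 3 each), 0.40 on the log2 scale with a 95% interval from -0.04 to 0.83. Its values were 9.53, 11.6 and 10.7 FPKM in the controls and 15.5, 16.8 and 10.5 FPKM in I13 replicates 1, 2 and 3, so the last lay within the controls. Topbp1, the most abundant of all 39 genes, was measured at 25.1, 35.0 and 29.2 FPKM in the controls and at 32.9, 35.6 and 23.4 FPKM after I13, where the spread within a group was larger than the difference of 0.03. That difference was -0.0249 after a correction for gene length. Atr, Chek1 and Chek2 differed by 0.18, 0.14 and -0.21.

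The MRE11, RAD50 and NBS1 proteins form the complex that senses and trims broken ends, with CtIP, encoded by Rbbp8, as its cofactor and EXO1 as the nuclease of long resection. Rad50, the most abundant, stood at 13.2, 17.2 and 14.1 FPKM in the controls and at 16.7, 20.03 and 15.6 FPKM in I13 replicates 1, 2 and 3. It was higher in each pair, by 0.33, 0.22 and 0.14, and so was Nbn, by 0.29, 0.18 and 0.15. Their groups overlapped, and their adjusted p from limma was 0.407 and 0.399. Rbbp8 differed by 0.12, Exo1 by -0.08 and Mre11a by -0.15. The 3 subunits of the complex thus did not lie on the same side of 0.

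In end joining, the XRCC5 and XRCC6 proteins form the Ku ring, PRKDC is the kinase that binds it, and XRCC4 holds the ligase LIG4. Xrcc6, the most abundant, stood at 19.9, 25.3 and 19.4 FPKM in the controls and at 19.9, 19.4 and 17.4 FPKM in I13 replicates 1, 2 and 3, and control replicate 2 was the high value. It was the only lower gene of the 5, with a log2 fold change of -0.18. Xrcc4 did not overlap between the groups, at 1.74, 1.41 and 1.23 FPKM in the controls and 2.10, 1.76 and 1.79 FPKM after I13. It rested on 91 to 156 fragments a sample, control replicate 1 lay just under I13 replicate 2, and the log2 fold change was 0.35 (adjusted p = 0.361 from limma). Lig4, Prkdc and Xrcc5 differed by 0.25, 0.21 and 0.20. Xrcc4, Xrcc5 and Lig4 were higher in all 3 pairs.

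The pairs of same-numbered samples differed from each other in the direction of most genes. In the pair of replicate 1, 27 of the 39 genes were higher after I13, and in the pair of replicate 2 it was 23. In the pair of replicate 3 it was 10. These are 69.2%, 59.0% and 25.6% of the genes, against 52.9%, 49.9% and 43.2% of all genes tested. The median difference within the pairs was 0.24, 0.11 and -0.16 for the repair genes, against 0.02, 0.00 and -0.05 for all genes tested. In 14 of the 39 genes, or 35.9%, the value was higher after I13 in the first and second pairs and lower in that of replicate 3, a pattern seen in 12.9% of all genes tested. Brca1, Brip1, Blm, Atm, Atr, Chek1 and Prkdc were among them. The pattern was not particular to the 39 genes. It was seen in 26.3% of the other repair genes tested, 31.25% of the S phase markers and 25% of the mitotic markers. In the pair of replicate 3, 22.4%, 18.75% and 8.33% of these lists were higher after I13. Higher in all 3 pairs were 8 genes, or 20.5%, and lower in all 3 were 10, or 25.6%, near the 24.1% and 27.3% of all genes tested.

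**Figure D3:**
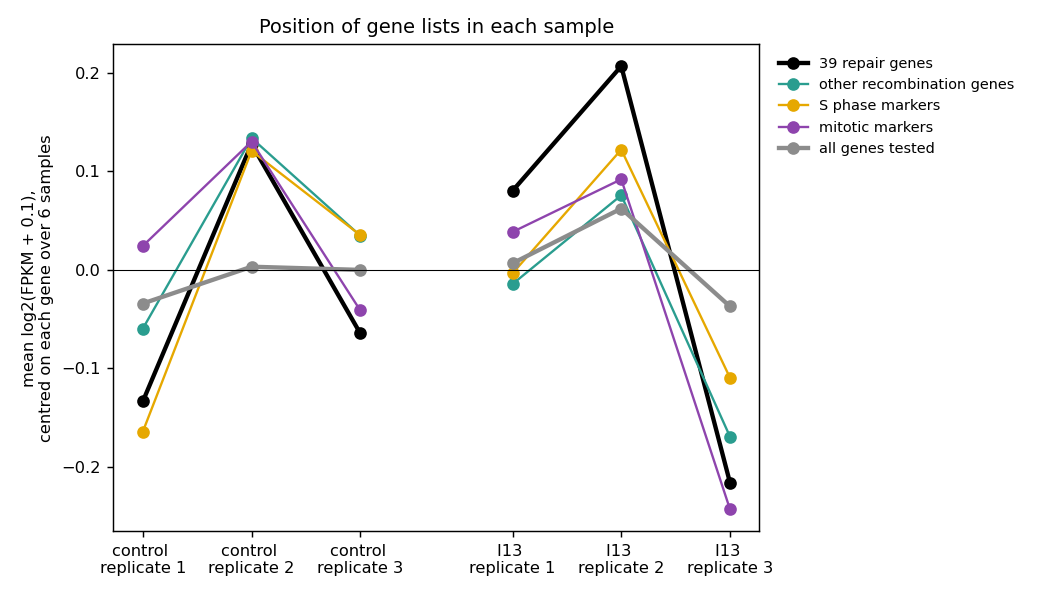
Mean position of gene lists in each of the 6 samples, as log2(FPKM + 0.1) centred on each gene's mean over the samples. Lines join the samples of a group for reading only. The 39 repair genes run from -0.13 in control replicate 1 to 0.21 in I13 replicate 2 and -0.22 in I13 replicate 3. This range is wider than that of all genes tested, and so are those of the other small lists. The S phase markers run from -0.16 to 0.12, the mitotic markers from -0.24 to 0.13 and the other recombination genes from -0.17 to 0.13.

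With each gene centred on its mean, the 39 genes stood on average at -0.13, 0.13 and -0.06 in control replicates 1, 2 and 3 and at 0.08, 0.21 and -0.22 in the I13 replicates, as the plot of the sample positions shows. All genes tested stayed between -0.04 and 0.06. Of the sum of squares of the 39 genes, 27.9% lay between the conditions and 50.5% between the replicate numbers, which have an additional degree of freedom, against 27.7% and 44.2% for all genes tested. I13 replicate 3 was the lowest of the I13 samples in 82.1% of the repair genes and in 48.01% of all genes tested, and the lowest of all 6 samples in 51.3% and 23.5%. Control replicate 2 was the highest control in 76.9% and 43.5%. Without I13 replicate 3, the median log2 fold change of the 39 genes was 0.22 and 9 of them were higher at an unadjusted p below 0.05. Without I13 replicate 2, the median was -0.09. The markers of S phase and of mitosis are genes that follow the share of dividing cells. Like the 39 genes, they stood highest in replicate 2 of each group and lowest of the I13 samples in replicate 3. I13 replicate 3 was the lowest I13 sample in 75% of the S phase and 91.7% of the mitotic markers. Control replicate 1 was the lowest control for the S phase markers but not for the mitotic ones. The S phase markers stood at -0.16, 0.12 and 0.04 in the controls and at -0.00363, 0.12 and -0.11 after I13, and the mitotic markers at 0.02, 0.13, -0.04, 0.04, 0.09 and -0.24 in the same order. The part of these markers in the levels of the repair genes was not tested.

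To set partner genes against each other within a sample, the ratio of their FPKM was taken. The 12 pairs of direct partners were listed after the first 4 had been looked at, so the ratios are a description with no test. The ratio of Rmi1 to Rmi2 was 0.541, 0.858 and 0.696 in control replicates 1, 2 and 3 and 1.32, 1.66 and 1.43 in the I13 replicates. Rmi2 thus had the higher FPKM in each control and Rmi1 in each I13 sample. The mean ratio was 0.699 ± 0.159 in the control and 1.47 ± 0.174 after I13 (SD, n = 3 each), 2.10 times as high. Brca1 to Bard1 stood at 1.02 ± 0.0630 in the control and at 1.29 ± 0.0167 after I13. Fanci to Fancd2 moved from 0.659 ± 0.00857 to 0.850 ± 0.0353, with 0.650 to 0.666 in the controls and 0.813 to 0.884 in the I13 samples. In both ratios I13 replicate 3 lay beside the other I13 samples. The ratios of Brca2 to Palb2, from 1.04 to 1.45, and of Fancb to Fancl, from 1.34 to 1.65, also did not overlap between the groups, and that of Mre11a to Rad50 was lower after I13, at 0.846 against 1.10. In all, 6 of the 12 ratios did not overlap, 5 higher and 1 lower, where 32.1% of all 741 ratios of the 39 genes and 23.2% of the ratios of all genes tested did not. The ratio of the Ku genes, Xrcc5 to Xrcc6, was 0.710 ± 0.1003 in the control and 0.925 ± 0.118 after I13 and overlapped.

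**Figure D4:**
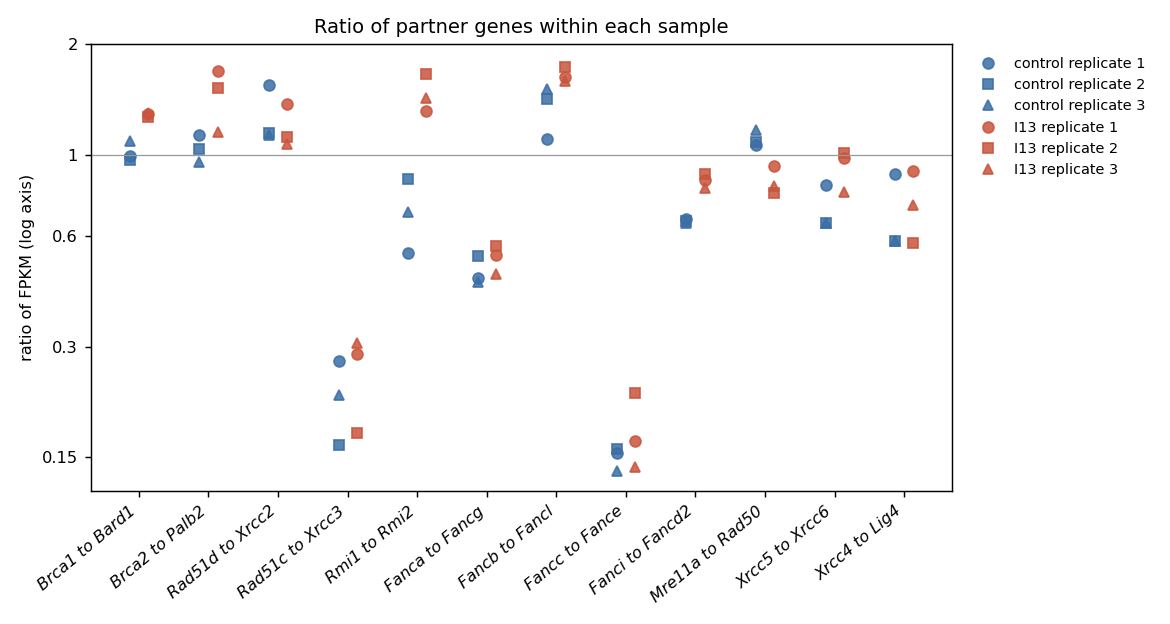
FPKM ratio of 12 pairs of partner genes within each sample, on a log axis, with blue marks for the 3 control and red marks for the 3 I13 samples. The line at 1 marks equal FPKM. Rmi1 to Rmi2 lies below 1 in every control and above 1 in every I13 sample, and the marks of Fanci to Fancd2 are tightly grouped on either side of the gap.

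Among the 39 genes, the longer ones had the higher differences in the pairs of replicates 1 and 2. The gene lengths recovered from the FPKM values ran from 1691 bases for Fancf to 23629 for Atr, with a median of 5375 against 3485 for all genes tested. Across the 39 genes, Spearman's correlation of length with the log2 fold change was 0.31, and it was 0.46, 0.45 and -0.24 within the pairs of replicates 1, 2 and 3. These genes share the libraries, so the values are a description. Across all genes tested it was 0.08, and 0.13, 0.06 and -0.01 within the pairs. Of the 11 repair genes of at least 8000 bases 8 were higher, with a median of 0.20, and of the 28 shorter ones 14 were, with a median of -0.00427. Over all genes tested, 905 of 1548 long genes and 5084 of 10614 shorter ones were higher. After a correction for the length trend of each library, 20 of the 39 genes were higher. Their median was 0.03, against -0.03 for all genes tested, and without the correction these medians were 0.07 and -0.01. Rmi2, of 4495 bases, and Rmi1, of 3522, had log2 fold changes of -0.62 and 0.46 with the correction.

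**Figure D5:**
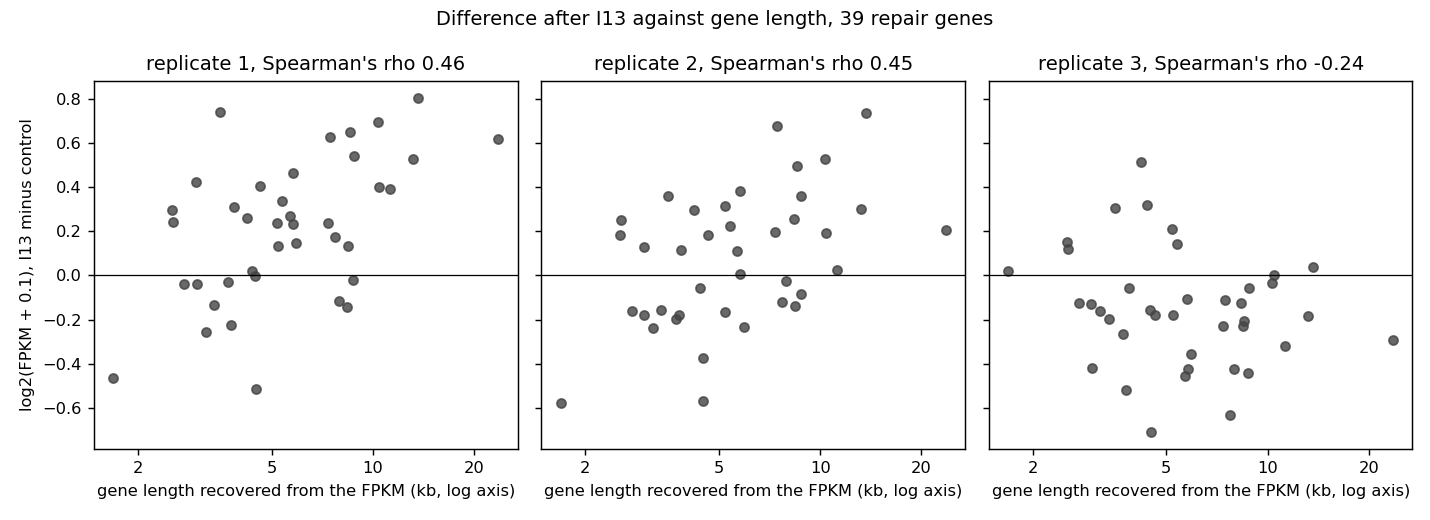
Difference after I13 on the scale of log2(FPKM + 0.1) against gene length in kb on a log axis, for the 39 repair genes in each pair of same-numbered samples. Each point is a gene. The points climb with length in the pairs of replicates 1 and 2, with Spearman's correlations of 0.46 and 0.45, and not in that of replicate 3, with -0.24.

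The other genes of these pathways were read from the same comparison. Of 79 such genes 76 were tested, 0 passed the thresholds with or without the block, and 31 were higher and 45 lower, with a median log2 fold change of -0.06. At an unadjusted p below 0.05, 2 of the 76 were higher and 13 lower, or 2.63% and 17.1%, against the 7.79% and 10.8% of all genes tested. Among 23 further recombination genes 4 were lower at that limit and 0 were higher. These were Swsap1, Rpa3, the smallest subunit of the single-strand binding protein RPA, Eme1, a subunit of the MUS81 nuclease, and the helicase Recql5. Rpa3 stood at 46.3, 61.2 and 49.9 FPKM in the controls and at 40.4, 44.1 and 36.2 FPKM after I13, a log2 fold change of -0.38, and the other 3 differed by -0.38, -0.34 and -0.31. Of 14 further end joining genes 3 were lower, the ligases Lig1 and Lig3 (-0.27 and -0.30) and the phosphodiesterase Tdp1 (-0.36).

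In the Fanconi pathway 16 further genes were tested, with a median of 0.00. Faap100, which binds FANCB and FANCL in the core complex, was lower in all I13 samples, at 4.55, 5.39 and 5.16 FPKM in the controls and 3.39, 3.56 and 3.84 FPKM after I13, a log2 fold change of -0.47 (adjusted p = 0.125 from limma). Cenpx differed by -0.21, and Rev3l, the catalytic subunit of the translesion polymerase zeta, by 0.43 in the other direction. Among 23 further genes of damage signalling 4 were lower at an unadjusted p below 0.05 and 1, Brcc3, was higher by 0.37. Kat5, the acetyltransferase that activates ATM, had a log2 fold change of -0.54, with 16.6 to 19.9 FPKM in the controls and 11.8 to 14.3 FPKM after I13 (adjusted p = 0.113 from limma). H2afx, the histone variant whose phosphorylation marks breaks, was at 23.0, 20.2 and 15.8 FPKM in the controls and at 15.3, 13.2 and 12.3 FPKM after I13. Its log2 fold change of -0.52 had an adjusted p of 0.163 from limma, and of 0.0472 with the block, under the fold change threshold. Babam1 and Mdc1, both of the response around BRCA1 and phosphorylated H2AX, differed by -0.32 each. Of the 16 S phase markers Rrm2 was higher (0.28) and Cdc45 and Mcm5 lower (-0.38 and -0.26) at an unadjusted p below 0.05, and of the 12 mitotic markers Plk1, Aurka and Aurkb were lower (-0.40, -0.34 and -0.30). Their adjusted p from limma was at least 0.109. Of all 16 S phase markers 9 were higher and 7 lower, and of the 12 mitotic markers 3 and 9. The largest difference of the mitotic markers was that of Mki67, higher by 0.48 (adjusted p = 0.311 from limma).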

How the data were processed

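The mRNA of BaF3-T315I cells was sequenced from stranded libraries in 3 control and 3 I13 samples, grouped and numbered from the labels. The authors deposited FPKM values of 22413 genes, with replicates not pooled, in 1 table with 0 columns left without a sample. The submitters' processing notes name Trimmomatic, HISAT2, Cufflinks and HTSeq, with no version or role. They give hg38 as the build and the labels give human as the organism, whereas the listed identifiers are those of mouse genes. They were taken as mouse genes here, and no coordinates or sequences are given.

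Whole fragments and gene lengths were recovered from the FPKM values within a tolerance of 0.005 fragments for 22412 genes. Between 99.45% and 99.48% of the fragments of a library fell on the listed genes. Fragments shared with overlapping or antisense genes were not examined.

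Since FPKM are not counts, log2(FPKM + 0.1) was fitted with limma 3.58.1 (eBayes with a trend) in R 4.3.3, in the 12163 genes with a mean of at least 0.5 FPKM, with Benjamini-Hochberg adjustment over all of them. Deviations from the group means correlated across genes by 0.15, 0.30 and 0.22 between same-numbered samples and by -0.26 to 0.05 between others. The numbers were therefore taken to pair the samples, and the replicate number was added as a block in a further fit. This pairing was read from the same values that the blocked fit tests, so the p-values of that fit depend on it. Deviations cancel out within a group, so positive correlations between same-numbered samples by themselves lower those between the others. Neither the labels nor the study's methods tie a number to a batch or day.

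The 39 genes and the other lists were chosen with earlier results of these data known. Values of each sample are given for genes past an adjusted p of 0.05 in either fit, for genes with an unadjusted p below 0.05, and for the most abundant gene of each role. In the other lists, up to 4 genes with the lowest p below 0.05 are named. Atm, Xrcc4, Mdc1, Mki67 and the second gene of each ratio were given beyond this rule, after their values were seen. Of the lists, Paxx, Dntt, Kit, Marco, Col1a2, Dcn and Pdgfra are not analysed here. Alternatives were other pseudocounts, filters and scalings, eBayes without a trend, the block, voom on the recovered fragments and leaving out each sample. A correction for gene length (loess, span 0.5), leaving out each pair from the blocked fit, and the list of partner genes were chosen after seeing the data. Python 3.11.15 and matplotlib 3.10.9 drew the figures.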

Additional observations from a re-analysis of the deposited data

How the results depend on the processing

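With 3 samples a group and 83 or more fragments a gene and sample, both replicates and depth limit these comparisons. Without the block, 0 of the 39 genes had an adjusted p below 0.05 from limma, and the count was 0 also for every pseudocount, filter and scaling tried, for voom and for the length correction, where 2 to 8 of all genes tested passed. With any sample left out 0 of all genes tested passed, so that count says nothing about the stability of the 39. With the replicate block 1 gene had an adjusted p below 0.05 and 1 was called, against 2.99% and 1.89% of all genes tested. With the length correction and the block these counts were again 1 and 1, each time Rmi2, against 2.80% and 1.99%. With voom and the block they were 3 (Rmi2, Rmi1 and Brca2) and 1, against 12.4% and 4.14% of all genes tested. Leaving out both samples of a number from the blocked fit gave 0, in designs where 85, 0 and 0 of all genes tested passed without replicates 1, 2 and 3, and the log2 fold change of Rmi2 was -0.64, -0.61 and -0.54. Genes higher at an unadjusted p below 0.05 were 1 without the block, 3 with median-ratio scaling, 6 with the block, 2 with voom, 8 with voom and the block, 6 with the length correction and the block, and 1 to 9 with a sample left out. Genes lower at that limit were 2, but 1 as TPM and 1 by eBayes without a trend, and 1 to 3 with a sample left out. They were 3 with the block, 3 with voom and the block, and 3 with the length correction and the block. Of all genes tested, 18.6% reached that limit in either direction without the block, 28.0% with it and 30.8% with voom and the block. The log2 fold change of Rmi2 was under the fold change threshold at a pseudocount of 1 (-0.50), under median-ratio scaling (-0.578), as TPM (-0.569), and without control replicate 1 (-0.513), I13 replicate 2 (-0.549) or I13 replicate 3 (-0.521).

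Of the other 76 repair genes, 15 had an unadjusted p below 0.05, 9 as TPM and 8 to 13 with a sample left out. The count was 17 with the block, and 18 with median-ratio scaling, with voom and the block, and with the length correction. With the length correction and the block it was 21. The S phase and mitotic markers gave 6, and 3 to 7 with a sample left out. The block changed no other call among the 39 genes. Small differences changed sign. Bard1 was at 0.00429 as TPM. Fancc was at 0.00579 when the pseudocount was 1, at 0.0154 with median-ratio scaling, 0.0246 as TPM and 0.0223 with voom and the block. With the length correction, with and without the block, Rad54b was at -0.0151 and Topbp1 at -0.0249. With a sample left out, the log2 fold change ran from -0.176 to 0.164 for Bard1, from -0.284 to 0.148 for Fancc, from -0.145 to 0.193 for Rad54b, from -0.0874 to 0.215 for Topbp1, from -0.0260 to 0.338 for Chek1, from -0.182 to 0.0513 for Exo1, from -0.0178 to 0.386 for Fanci, from -0.111 to 0.232 for Palb2, from -0.0119 to 0.274 for Rad51c and from -0.188 to 0.0204 for Xrcc2. The median of the 39 genes ran from -0.09 to 0.22. The causes were not tested.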
